A study of Mus musculus with 34 samples.

Results

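Weighted wheel running was studied in the soleus of 24-month-old female mice, with 4 libraries from mice after progressive weighted wheel running (PoWeR) and 5 libraries from age-matched sedentary mice. These 9 libraries are all the 24-month soleus columns among the 34 libraries of the series, and they were chosen by their labels for muscle, age and training, not by any measured value. PoWeR mice trained for 8 weeks on a wheel that carries added weight and that the mice turn of their own accord, and the wheel was locked for 24 h before they were killed. The design text also gives an overnight fast and does not say plainly whether the sedentary mice were fasted too. The running, the wheel lock and, if given to PoWeR mice alone, the fast cannot be told apart. No strain, mutation, drug or surgery is named for either group. No label states that each library is a different animal; the p-values therefore reflect spread between these libraries, part of which may be technical. The extraction text names plantaris RNA for every library of the series, those labelled soleus included.

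The soleus is a postural muscle of the calf. In mice it is built of slow and intermediate oxidative fibres, which hold many mitochondria and burn fatty acids, and it is at work whenever the animal stands or runs. Endurance running in rodents is known to alter mitochondria, capillaries and fibre types, and added load is known to enlarge fibres. Old muscle loses fibres and nerve contacts, and genes such as Runx1 and Gadd45a are known to be switched on in fibres that have lost their nerve.

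Levels of single genes are in CPM, that is, counts divided by the library total after TMM adjustment and put on a shared scale; they are not per length, so they compare libraries and not genes. Means carry the SD over 4 PoWeR and 5 sedentary libraries. Log2 fold changes are PoWeR over sedentary, with the standard error (SE) of the fit. A gene was called, and is said to have risen or fallen, when edgeR's quasi-likelihood F test gave a p under 0.05 after Benjamini-Hochberg adjustment across the 14934 genes tested. Leave-one-out fits are the 9 fits that each omit 1 of these libraries.

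The libraries held 15453397 to 17275490 counts. Myh7, the slow myosin heavy chain, took 54.3, 57.2, 64.8 and 54.6% of the counts of the adult heavy chains Myh7, Myh2, Myh1 and Myh4 in PoWeR libraries 10, 12, 14 and 15, and 48.3 to 55.3% in sedentary libraries. Myh4, which marks the fastest fibres, took 0.0665 to 0.987% in PoWeR libraries, and 0.0328 to 0.244% in the sedentary libraries other than number 13, which had 3.16%. Slow myosin thus led in all 9 libraries, as the soleus label requires. Sedentary 13 also stood apart in genes of connective tissue cells. Its summed level of 12 fibro-adipogenic progenitor markers was 362 CPM, while the other sedentary libraries had 605 to 992 CPM. Sedentary 12 was highest (564 CPM) and sedentary 16 lowest (236 CPM) in the sum of 11 adipocyte markers, with 340 to 381 CPM in the other 3 sedentary libraries. PoWeR 10 had 35.7 CPM in the sum of 3 markers of B and plasma cells, and the other 3 PoWeR libraries 5.15 to 8.40 CPM. In whole muscle, fewer cells of a type and less RNA per cell cannot be told apart.

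By the main edgeR fit, a small set of genes differed between PoWeR and sedentary libraries of the old soleus. Of 14934 genes tested, 128 passed (0.857%), 70 higher (0.469%) and 58 lower (0.388%) with PoWeR, while the median log2 fold change of all genes was -0.003. An unadjusted p under 0.05 was reached by 1907 of the genes (12.8%), and DESeq2 called 377 of 22838 genes (1.65%). In 116 of the 128 the PoWeR and sedentary libraries did not overlap, which was so for 6.7% of all genes tested. The changes were mostly moderate: 26 genes were over 2-fold higher, 13 were over 2-fold lower and 36 changed by under 1.5-fold. All but 6 of the called genes code for proteins. The number depended on single libraries. It was 36 without PoWeR 12, 52 without sedentary 12, 63 without sedentary 15 and 12 without sedentary 12 and 13 together, a pair chosen after seeing the data; 27 of the 128 genes, 14 higher and 13 lower, were called in all 9 leave-one-out fits, and in none of the 128 did the sign turn.

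**Figure D1:**
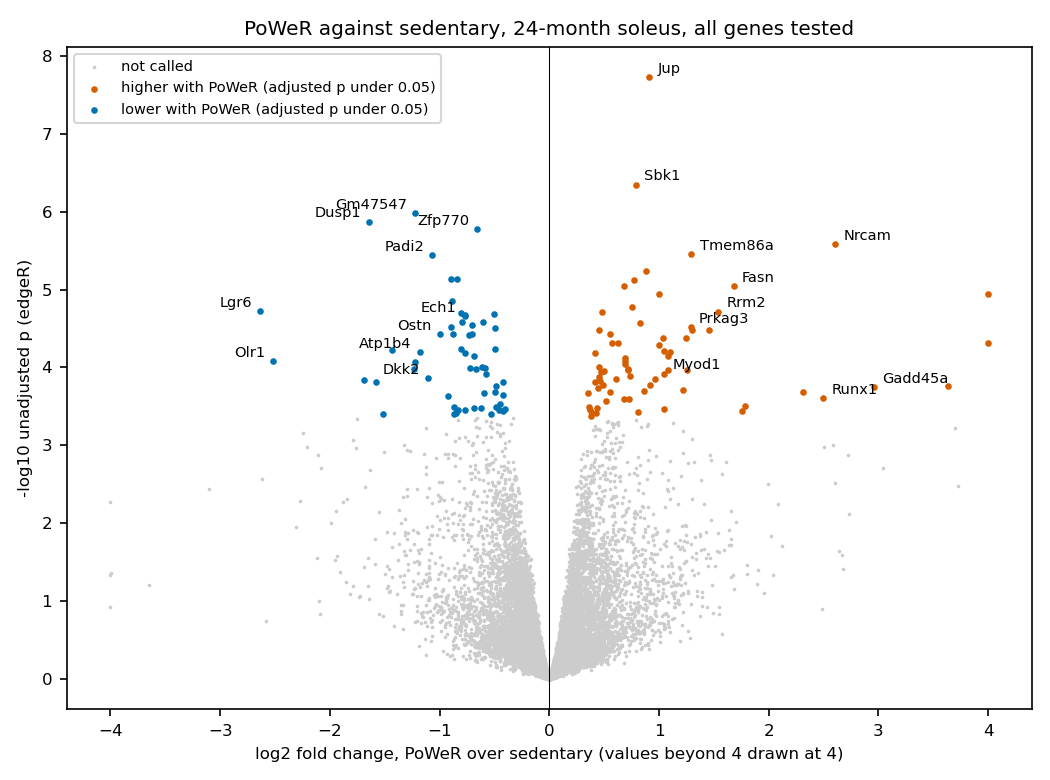
Log2 fold change of PoWeR over sedentary (x axis, values beyond 4 drawn at 4) against -log10 of the unadjusted edgeR p (y axis) for 14934 genes in 24-month soleus. Orange points are the 70 genes that rose and blue points the 58 that fell; Jup lies highest on the y axis, and Nrcam and Olr1 are among the named genes farthest from 0.

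Some genes of fat synthesis rose, 3 of 23, and some genes of fat burning fell, 4 of 25. Of all genes tested, 0.469% rose and 0.388% fell. Fasn, the fatty acid synthase that builds palmitate (chromosome 11, 120805846 to 120824547, mm10), had 25.6, 34.6, 47.8 and 39.0 CPM in PoWeR libraries 10, 12, 14 and 15, against 14.4, 10.2, 13.7, 10.8 and 8.25 CPM in sedentary libraries 12 to 16. Every PoWeR library was above every sedentary one, and PoWeR 14 was the highest. Fasn had a log2 fold change of 1.68 ± 0.26 (SE; edgeR adjusted p = 0.00970) and was called in all 9 leave-one-out fits. Srebf1, the transcription factor known to drive lipid synthesis genes, had 34.3, 34.0, 32.7 and 22.4 CPM in PoWeR libraries, against 20.5, 21.3, 18.4, 17.8 and 15.9 CPM in sedentary ones. PoWeR 15 lay just above the highest sedentary library and the other 3 well above it, with a log2 fold change of 0.72 ± 0.15 (SE; edgeR adjusted p = 0.0228). Srebf1 lies over the opposite strand of Rai1, which had 36.4 CPM with PoWeR and 32.5 CPM in sedentary soleus, and whether counting used strand is not given in the sources used here. Elovl6, which lengthens the palmitate that Fasn makes, was scarce, with 1.27, 1.15, 3.26 and 2.13 CPM in PoWeR libraries, against 0.972, 0.381, 0.682, 0.562 and 0.236 CPM in sedentary libraries. Elovl6 rose by 1.76 ± 0.41 on the log2 scale (edgeR adjusted p = 0.0451) but was called in 1 of the 9 leave-one-out fits. These were the 3 of 23 lipogenesis genes that passed, all higher, and the list's median log2 fold change was 0.16. Of the 23, 19 were positive and 10 had an unadjusted p under 0.05, against 12.8% of all genes tested. All PoWeR libraries lay above all sedentary ones in 5 and below them in 1, against 2.9 and 3.8% of all genes tested. Acly, Acaca and Scd1, which make the substrates of fat synthesis or desaturate its products, had 0.24, 0.06 and 0.66 and did not pass. The list held 1 call without PoWeR 12 or without sedentary 12, 14, 15 or 16. DESeq2 called 3 of its genes higher and 1 lower. Limma with quality weights and the fit of only the 9 libraries each called 2 higher and 1 lower. Adipocytes are also rich in Fasn. Their 11 markers summed to 331, 465, 364 and 283 CPM in PoWeR libraries and to 564, 340, 361, 381 and 236 CPM in sedentary ones, with 0 called by edgeR or DESeq2 and 0 at an unadjusted p under 0.05. Among the sedentary libraries, number 12 was highest and number 16 lowest in both the marker sum and Fasn. The part of adipocytes in the rise of Fasn was not tested.

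The start of Fasn is shown because this gene had the strongest rise among the metabolic genes called in all leave-one-out fits. The 300 bases run from 250 before to 50 after the RefSeq start (chr11:120824498-120824797, minus strand, GRCm38.p6), and capitals mark matches to CCAAT on either strand.
Fasn: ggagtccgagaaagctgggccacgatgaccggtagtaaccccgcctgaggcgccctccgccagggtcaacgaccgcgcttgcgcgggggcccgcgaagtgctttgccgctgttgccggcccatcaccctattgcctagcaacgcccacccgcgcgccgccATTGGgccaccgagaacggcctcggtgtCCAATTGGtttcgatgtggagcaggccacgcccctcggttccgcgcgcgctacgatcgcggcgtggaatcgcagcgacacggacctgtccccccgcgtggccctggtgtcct
The window holds 3 such matches, of which the last 2 overlap on opposite strands; 37.4% of the 32851 RefSeq promoter windows of this length hold at least 1. The TATA box letters TATAAA were not found in it on either strand. The same was true of the E-box letters CACGTG, searched on both strands, and of the cyclic AMP response element spelled TGACGTCA, searched likewise.

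Fatty acid use was the list with the most calls. Ech1, an auxiliary enzyme of mitochondrial beta-oxidation that handles unsaturated chains, had 249, 250, 248 and 285 CPM in PoWeR libraries, against 472, 400, 407, 470 and 449 CPM in sedentary libraries. The lowest sedentary library stood well above the highest PoWeR library, and the log2 fold change was -0.77 ± 0.14 (SE; edgeR adjusted p = 0.0131). Acaa2, the thiolase of the last step of the spiral, averaged 187 ± 20.5 CPM with PoWeR and 319 ± 39.5 CPM without and fell by 0.77 (edgeR adjusted p = 0.0183). Decr1, a reductase for unsaturated chains, averaged 125 ± 11.1 and 191 ± 19.2 CPM in PoWeR and sedentary libraries and fell by 0.61 (edgeR adjusted p = 0.0228). Acadm, the medium-chain dehydrogenase that opens the spiral, averaged 464 ± 40.7 CPM with PoWeR and 692 ± 42.6 CPM without and fell by 0.58 (edgeR adjusted p = 0.0244). Of 25 fatty acid use genes these 4 fell and 0 rose. Another 19 had a negative log2 fold change, and the list's median was -0.40. In 16 of the 25 all PoWeR libraries lay below all sedentary libraries, against 3.8% of all genes tested. The fatty acid transporter Cd36, at 521 to 631 CPM with PoWeR and 699 to 837 CPM in sedentary libraries, was among those 16 and did not pass (edgeR adjusted p = 0.0791). The median list deviation from the sedentary mean was -0.41, -0.37, -0.44 and -0.41 in PoWeR libraries 10, 12, 14 and 15, and -0.16 to 0.07 in sedentary libraries. No PoWeR library stood apart. The count of 4 was 0 without PoWeR 12, 1 without sedentary 12 or 15, 2 without PoWeR 15 and 0 without sedentary 12 and 13 together, where the list's median was -0.45. It was 6 without sedentary 13, 12 with DESeq2, 14 with only the 9 libraries fitted and 18 with limma and quality weights, all lower. Hsd17b4, an enzyme of peroxisomal beta-oxidation, and Acat1, which works on ketone bodies, fell too, by 0.50 and 0.49; they were added to this account after their values were seen.

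Genes of the respiratory chain and the TCA cycle lay lower without passing gene by gene. All 34 nuclear oxidative phosphorylation genes had a negative log2 fold change, with a median of -0.31 and 0 called; 21 had an unadjusted p under 0.05, and DESeq2 called 4. Sdha, the catalytic subunit of succinate dehydrogenase, had 676, 656, 686 and 663 CPM in PoWeR libraries, against 868, 846, 907, 876 and 874 CPM in sedentary libraries. Its groups were narrow and far apart, yet the log2 fold change of -0.38 ± 0.11 did not pass (edgeR adjusted p = 0.101). The count for this list was 11 lower when only the 9 libraries were fitted and 10 lower with limma and quality weights. All 17 TCA cycle genes were negative too, with a median of -0.23 and 0 called (9 at an unadjusted p under 0.05; 3 by DESeq2). The 13 mitochondrially encoded genes had a median of -0.40 and 0 called (8 at an unadjusted p under 0.05; 0 by DESeq2). Together with the other genes of the mitochondrial genome they took 10.6, 11.5, 10.8 and 13.4% of counts in PoWeR libraries 10, 12, 14 and 15, against 14.4, 13.1, 13.9, 14.2 and 14.5% in sedentary libraries 12 to 16. PoWeR 15 lay within the sedentary range and the other 3 below it. The share averaged 11.6 ± 1.25% with PoWeR and 14.01 ± 0.552% without; an exact two-sided permutation test gave p = 0.0317, and p = 0.159 after adjustment over 5 shares, where the smallest p the design allows is 0.0159.

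**Figure D2:**
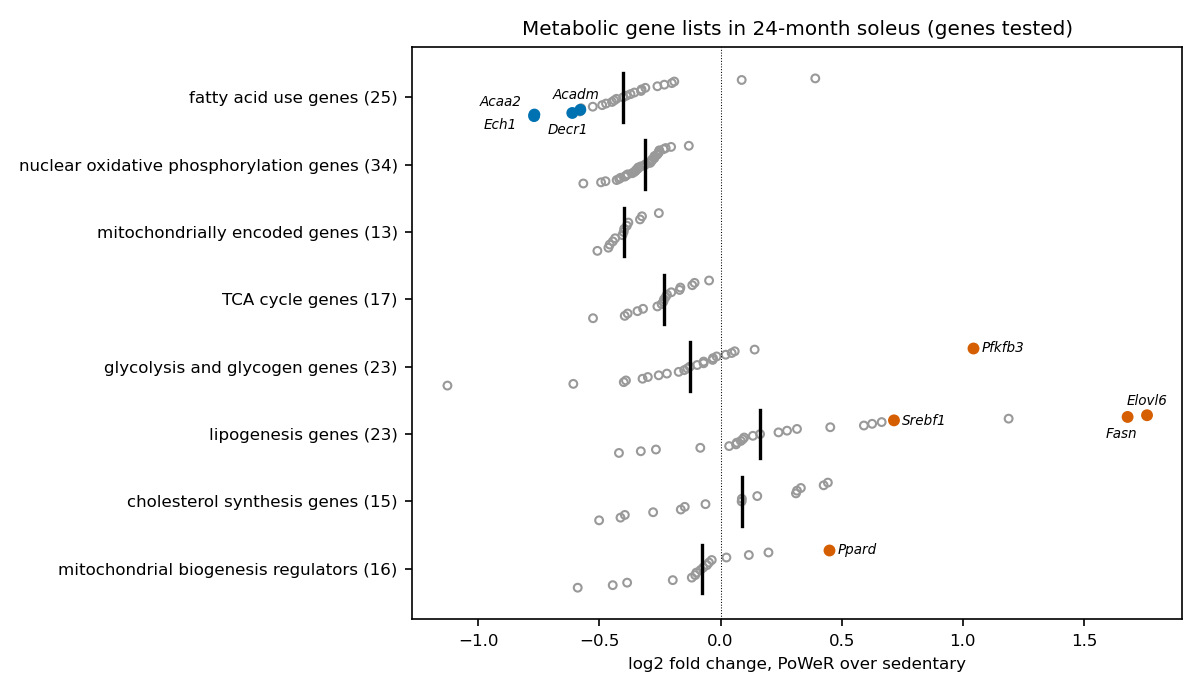
Log2 fold change of PoWeR over sedentary (x axis) for each tested gene of 8 metabolic lists (y axis, number of genes in brackets); the height of a point within a row only spaces the points. Vertical bars are list medians, open circles genes that did not pass, and filled circles genes that rose (orange) or fell (blue); the 4 called fatty acid use genes lie left of 0 and the 3 called lipogenesis genes right of it.

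Of the genes of glucose use and energy sensing, Pfkfb3, Prkag3 and Ppard rose. Pfkfb3, which makes the metabolite that switches on glycolysis at phosphofructokinase, had 25.98, 21.3, 31.8 and 18.9 CPM in PoWeR libraries, against 14.5, 15.8, 8.47, 12.2 and 8.55 CPM in sedentary libraries. All PoWeR libraries were above all sedentary ones, with a log2 fold change of 1.04 ± 0.20 (SE; edgeR adjusted p = 0.0181), and the gene was called in all 9 leave-one-out fits. It was the 1 of 23 glycolysis and glycogen genes called; the list's median was -0.13. Prkag3, the AMP-activated kinase gamma subunit that is typical of glycolytic fibres, had 21.7, 10.3, 7.32 and 9.67 CPM in PoWeR libraries, against 5.26, 6.61, 4.89, 3.43 and 4.83 CPM in sedentary libraries. PoWeR 10 was far above the other PoWeR libraries, and it also had the largest Myh1 share of the 9, 23.5%. Prkag3 rose by 1.29 ± 0.24 (SE; edgeR adjusted p = 0.0141) and was called in all leave-one-out fits, that without PoWeR 10 included. The other 6 kinase subunits did not pass. Ppard, a nuclear receptor that drives oxidative genes, rose at 42.4 ± 3.27 CPM with PoWeR and 31.0 ± 3.01 CPM without (0.45 ± 0.09 on the log2 scale; edgeR adjusted p = 0.0228), and was the 1 of 16 mitochondrial biogenesis regulators called. Outside the fixed lists, pyruvate carboxylase (Pcx) rose by 0.56 and Pdpr, the regulatory subunit of pyruvate dehydrogenase phosphatase, fell by 0.84; each kept its call in 2 or fewer leave-one-out fits. The transporter gene Slc16a6 fell by 0.89 (edgeR adjusted p = 0.0125), with 12.8 to 21.5 CPM with PoWeR and 25.8 to 39.1 CPM in sedentary libraries; it overlaps Amz2 on the opposite strand, which had 48.2 CPM with PoWeR and 48.5 CPM without.

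Nrcam and Jup, which encode proteins of cell adhesion, rose; they were put side by side after their values were seen. Nrcam, an adhesion molecule of the immunoglobulin family best known from neurons (chromosome 12, 44328885 to 44601964), had 9.91, 10.8, 2.63 and 4.84 CPM in PoWeR libraries, against 1.03, 1.72, 0.568, 1.31 and 1.18 CPM in sedentary libraries. PoWeR 10 and 12 were about alike and high, PoWeR 14 the lowest of its group and still above every sedentary library. Nrcam rose by 2.60 ± 0.40 on the log2 scale (edgeR adjusted p = 0.00651). Because Nrcam is also a gene of nerve, the 11 Schwann cell markers were set beside it. The sums were 73.3, 89.4, 121 and 74.0 CPM in PoWeR libraries and 87.7, 60.9, 87.2, 79.6 and 69.7 CPM in sedentary ones, with 0 called by edgeR or DESeq2 and 5 at an unadjusted p under 0.05; their part in the rise was not tested. Jup, which encodes plakoglobin, a linker of cadherins to the cytoskeleton (chromosome 11, 100368958 to 100397763), had 142, 170, 124 and 122 CPM in PoWeR libraries, against 71.5, 64.8, 86.1, 76.2 and 72.2 CPM in sedentary libraries. It had the smallest p of all genes, with a log2 fold change of 0.91 ± 0.10 (SE; edgeR adjusted p = 0.000279). Other called genes of cell attachment and the cytoskeleton, grouped after their values were seen, were Dag1, which encodes dystroglycan (0.38), Parvb, a partner of integrin-linked kinase (0.48), Obsl1, a cytoskeletal adaptor (0.57), and Ddr1, a collagen receptor (0.68). All 4 rose, and Dag1 kept its call in 1 of the 9 leave-one-out fits. On the falling side stood Myh10, a non-muscle myosin (-0.73), and Abra, an actin-binding activator of serum response factor in striated muscle (-0.77). Abra had 203 to 278 CPM with PoWeR and 314 to 457 CPM in sedentary libraries. Xirp1, a marker of strained and regenerating sarcomeres, averaged 554 ± 66.9 CPM with PoWeR and 1066 ± 306 CPM without, and missed the threshold (edgeR adjusted p = 0.0619).

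Among stress-response genes, Dusp1 and Jund fell. Dusp1, a phosphatase that switches off MAP kinases and is an immediate early gene (chromosome 17, 26505590 to 26562128), had 18.3, 37.5, 25.1 and 23.1 CPM in PoWeR libraries, against 65.3, 89.7, 107, 54.5 and 89.5 CPM in sedentary libraries. The highest PoWeR library was well below the lowest sedentary one. Dusp1 fell by 1.64 ± 0.23 on the log2 scale (edgeR adjusted p = 0.00498) and was called in all leave-one-out fits and without sedentary 12 and 13 together. Its listed span overlaps Ergic1 on the opposite strand, which had 30.1 CPM with PoWeR and 27.0 CPM without. Jund, an AP-1 transcription factor, had 53.0, 73.8, 71.4 and 65.0 CPM in PoWeR libraries and 95.9 to 115 CPM in sedentary ones, and fell by 0.67 ± 0.14 (edgeR adjusted p = 0.0228); the call was lost without PoWeR 10, 12 or 15 or sedentary 14 or 16 (edgeR adjusted p up to 0.0657). These were the 2 of 31 immediate early and feedback genes called; the list's median was -0.17 and 9 members were positive. Fos had 2.92 to 6.65 CPM with PoWeR and 6.05 to 50.1 CPM in sedentary libraries, where sedentary 14 was the highest, and did not pass (edgeR adjusted p = 0.0848). Egr1 and Junb did not pass either, at -0.43 and 0.90.

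The start of Dusp1 is shown because its fall was among the largest that every leave-one-out fit called. The window runs from 250 bases before to 50 after the RefSeq start (chr17:26508423-26508722, minus strand, GRCm38.p6), which lies inside the span that the deposited table gives the gene. Capitals mark the cyclic AMP response element TGACGTCA and the E-box CACGTG, searched on both strands.
Dusp1: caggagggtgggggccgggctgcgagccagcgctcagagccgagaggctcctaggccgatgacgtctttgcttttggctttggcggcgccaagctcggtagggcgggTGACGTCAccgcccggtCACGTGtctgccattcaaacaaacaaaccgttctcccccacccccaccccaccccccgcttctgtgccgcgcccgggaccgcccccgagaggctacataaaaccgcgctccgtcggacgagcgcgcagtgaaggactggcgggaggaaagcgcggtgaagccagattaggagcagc
The first is found in 1.79% and the second in 7.15% of the 32851 promoter windows, and neither match overlaps the other.

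Falls outside the fixed lists differed in how far they depended on single libraries. Padi2, an enzyme that turns protein arginine into citrulline (chromosome 4, 140906344 to 140952586), had 63.3, 75.2, 69.0 and 67.9 CPM in PoWeR libraries, against 130, 154, 154, 141 and 142 CPM in sedentary libraries. The libraries of each group lay close together and the groups far apart, with a log2 fold change of -1.07 ± 0.17 (SE; edgeR adjusted p = 0.00681), and every leave-one-out fit called the gene. Olr1, a receptor for oxidised low-density lipoprotein, had 0.461, 0.382, 1.72 and 2.07 CPM in PoWeR libraries, against 10.7, 4.64, 2.95, 8.17 and 6.72 CPM in sedentary libraries. It had the largest fall under the naming rule, -2.52 ± 0.51 (SE; edgeR adjusted p = 0.0212), at low levels; the call was lost without PoWeR 10 or 12 or sedentary 12 or 15 (edgeR adjusted p up to 0.0822). Dhrs9, a short-chain dehydrogenase that acts on retinoids and steroids, averaged 2.35 ± 1.24 CPM with PoWeR and 7.06 ± 1.66 CPM without (-1.58 ± 0.34; edgeR adjusted p = 0.0274), and was called in 3 of the 9 leave-one-out fits. Non-coding genes fell as well: AI838599, annotated as a lincRNA, fell by 1.24, Gm50321, another lincRNA, by 0.93, and Gm47547, annotated as antisense, by 1.22. Gm47547 had 2.89 to 5.12 CPM with PoWeR and 7.88 to 11.2 CPM in sedentary libraries and was called in every leave-one-out fit, while AI838599 and Gm50321 were called in 4 and 2 of them.

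**Figure D3:**
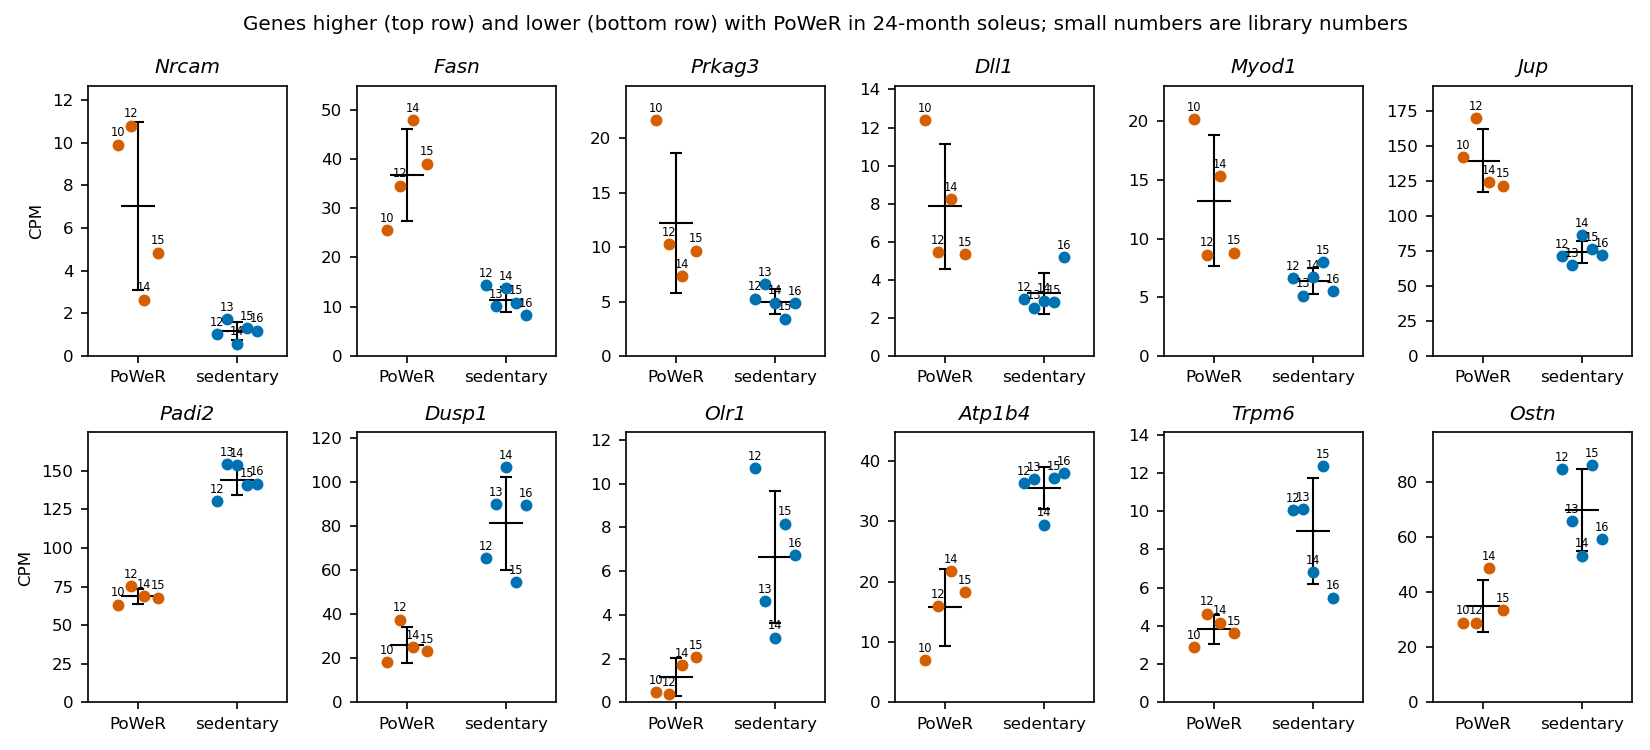
CPM (y axis, from 0, a scale for each gene) of 6 genes that rose (top row) and 6 that fell (bottom row) in each PoWeR (orange) and sedentary (blue) library of 24-month soleus. Small numbers name the library, and bars are mean and SD; Prkag3, Dll1 and Myod1 are highest in PoWeR 10, and Fasn in PoWeR 14.

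Genes of membrane excitability changed in both directions. Of 17 ion transport genes 3 fell and 0 rose, with a list median of 0.02. Trpm6, a magnesium channel with a kinase domain, had 2.88, 4.64, 4.18 and 3.63 CPM in PoWeR libraries, against 10.1, 10.1, 6.82, 12.4 and 5.48 CPM in sedentary libraries. It fell by 1.22 ± 0.25 (edgeR adjusted p = 0.0212), but 5 of the 9 leave-one-out fits did not call it. Atp1b4 belongs to the beta family of the sodium pump but lies in the nuclear envelope of muscle in placental mammals. It had 6.97, 15.9, 21.7 and 18.2 CPM in PoWeR libraries, against 36.3, 36.9, 29.4, 37.1 and 37.96 CPM in sedentary libraries. PoWeR 10 was the lowest by far, and the log2 fold change was -1.18 ± 0.23 (SE; edgeR adjusted p = 0.0181), with the call lost without PoWeR 12 (edgeR adjusted p = 0.0707). The 3 calls of this list were 0 without PoWeR 12 and 1 without PoWeR 10 or 15 or sedentary 12 or 15. Of 20 calcium handling genes 2 rose. Cacnb1, the beta subunit of the voltage sensor that couples the action potential to calcium release, had 142, 153, 138 and 138 CPM with PoWeR and 91.0 to 111 CPM in sedentary libraries (0.50 ± 0.10; edgeR adjusted p = 0.0228). Sln, a peptide that inhibits the calcium pump, had 410, 407, 155 and 225 CPM in PoWeR libraries, against 169, 104, 110, 149 and 109 CPM in sedentary libraries. PoWeR 10 and 12 were high and PoWeR 14 lay within the sedentary range, and Sln rose by 1.22 ± 0.25 (edgeR adjusted p = 0.0312). Without PoWeR 12, sedentary 15 or sedentary 16 neither was called. At the nerve-muscle contact, Chrnb1, the beta subunit of the acetylcholine receptor, had 41.2, 45.9, 32.4 and 49.6 CPM in PoWeR libraries and 22.3 to 30.2 CPM in sedentary ones. It rose by 0.72 ± 0.16 (edgeR adjusted p = 0.0370), was the 1 of 15 neuromuscular junction genes called and kept the call in 2 of the 9 leave-one-out fits. Dok7, needed for receptor clustering, had 36.6 to 46.6 CPM with PoWeR and 23.3 to 32.1 CPM in sedentary libraries and did not pass (edgeR adjusted p = 0.0544).

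Myod1, of the satellite cell and myogenic list, and Dll1, of the Notch pathway list, rose. Myod1, a transcription factor that commits cells to muscle (chromosome 7, 46376474 to 46379099), had 20.2, 8.62, 15.3 and 8.81 CPM in PoWeR libraries, against 6.63, 5.15, 6.71, 7.99 and 5.54 CPM in sedentary libraries. PoWeR 10 and 14 were high, while PoWeR 12 and 15 lay just above the highest sedentary library. Myod1 rose by 1.05 ± 0.22 (edgeR adjusted p = 0.0242), and 4 of the 9 leave-one-out fits called it. It was the 1 of 14 satellite cell and myogenic genes that passed, where 0.469% of all genes tested were called higher. In this list 12 were positive and the median was 0.49. An unadjusted p under 0.05 was reached by 7 of the 14, against 12.8% of all genes tested. In 5 of the 14 all PoWeR libraries lay above all sedentary libraries, against 2.9% of all genes tested. Myog had 10.9, 36.9, 8.64 and 7.71 CPM with PoWeR and 4.38 to 9.32 CPM in sedentary libraries, so that PoWeR 12 stood alone and the test was not passed (edgeR adjusted p = 0.118). Pax7, the gene that marks quiescent satellite cells, had 2.999 to 4.41 CPM with PoWeR and 0.508 to 3.09 CPM without, and did not pass. The list's median deviation was 0.31 to 0.52 in PoWeR libraries and -0.38 in sedentary 13, the library low in connective tissue genes, with 0.03 to 0.12 in the other sedentary libraries; without sedentary 13 the list's median was 0.34 and Myod1 was not called (edgeR adjusted p = 0.0602). Dll1, a Notch ligand, had 12.4, 5.45, 8.24 and 5.35 CPM in PoWeR libraries, against 2.97, 2.54, 2.90, 2.81 and 5.19 CPM in sedentary libraries. Sedentary 16 came close to the lowest PoWeR libraries. Dll1 rose by 1.26 ± 0.26 (edgeR adjusted p = 0.0228) and was called in 4 of the leave-one-out fits. Of the other 17 Notch pathway genes none passed by edgeR, although 6 of the 18 had an unadjusted p under 0.05 and DESeq2 called 3; the target gene Hey1 had 2.25 to 8.06 CPM with PoWeR and 1.87 to 2.95 CPM without (edgeR adjusted p = 0.0544), and the list's median was 0.33. The Notch list's median deviation was 0.12, 0.35, 0.47 and 0.53 in PoWeR libraries 10, 12, 14 and 15 and -0.19 to 0.34 in sedentary libraries, so that the groups overlapped. Endothelial cells also use Notch ligands and Hey1. Their 13 markers summed to 242, 430, 480 and 489 CPM in PoWeR libraries and to 347, 252, 357, 361 and 436 CPM in sedentary ones, with 0 called by edgeR or DESeq2 (3 at an unadjusted p under 0.05). The part of endothelial cells in the rise of Dll1 was not tested. Rrm2, a subunit of the enzyme that makes DNA building blocks, had 5.41, 8.62, 4.01 and 5.18 CPM in PoWeR libraries, against 1.66, 2.29, 2.73, 1.06 and 2.24 CPM in sedentary libraries. It rose by 1.54 ± 0.28 (edgeR adjusted p = 0.0131), with the call lost without PoWeR 12 (edgeR adjusted p = 0.0661). It was the 1 called among 18 tested cell cycle and replication genes, whose median was -0.03.

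Of the secreted regulators, Ostn and Dkk2 fell. Ostn, which encodes musclin, a peptide that muscle releases and that binds the clearance receptor of natriuretic peptides, had 28.9, 29.0, 48.8 and 33.6 CPM in PoWeR libraries, against 84.8, 65.8, 53.3, 86.1 and 59.4 CPM in sedentary libraries. PoWeR 14 came nearest to the sedentary range without entering it. Ostn fell by 0.99 ± 0.18 (edgeR adjusted p = 0.0141) and was the 1 of 19 tested myokine genes called; without PoWeR 12 the call was lost (edgeR adjusted p = 0.0689). Dkk2, an inhibitor of Wnt signalling, had 28.6, 54.8, 65.2 and 73.7 CPM in PoWeR libraries, against 146, 91.7, 119, 157 and 84.6 CPM in sedentary libraries. It fell by 1.11 ± 0.23 (edgeR adjusted p = 0.0261), with the call lost without PoWeR 12 or sedentary 12 or 15 (edgeR adjusted p up to 0.106), and was the 1 of 20 tested Wnt pathway genes called. Dixdc1, which joins the Wnt signalling complex, was not on that list and fell by 0.88 ± 0.17 (edgeR adjusted p = 0.0141). Lgr6, a receptor of the Wnt-enhancing R-spondins, was named after its values were seen. It had 5, 15, 5 and 16 counts in PoWeR libraries and 65, 30, 69, 66 and 76 in sedentary libraries, fell by 2.63 ± 0.48 (edgeR adjusted p = 0.0131) and was called in all leave-one-out fits. Ntf5, a neurotrophin that muscle supplies to motor nerves, and Chrna2, a neuronal acetylcholine receptor subunit, fell by 1.69 and 1.44 at 2.60 and 10.2 CPM or less; they too were picked out after the values were seen.

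A set of rises was carried unevenly by the PoWeR libraries. Gadd45a, a growth arrest gene induced in denervated fibres, had 103, 184, 11.6 and 29.4 CPM in PoWeR libraries 10, 12, 14 and 15, against 10.6, 5.21, 16.1, 9.23 and 11.2 CPM in sedentary libraries. PoWeR 10 and 12 were high, PoWeR 15 lay above the sedentary range and PoWeR 14 lay within it. Gadd45a rose by 2.96 ± 0.58 (edgeR adjusted p = 0.0293). Runx1, a transcription factor of denervated fibres, followed the same order, with 33.4, 37.7, 3.20 and 9.27 CPM with PoWeR and 2.80 to 4.62 CPM in sedentary libraries, and rose by 2.49 ± 0.52 (edgeR adjusted p = 0.0365). These were the 2 of 13 tested denervation response genes that passed; 11 were positive and the median was 0.63. The count was 0 without PoWeR 10 or 12 or sedentary 12, 15 or 16, and 7 without PoWeR 14. DESeq2 called 8 higher and 1 lower, and limma with quality weights and the fit of only the 9 libraries each called 1 higher and 1 lower. Chrna1, the alpha subunit of the acetylcholine receptor, had 95.8 CPM in PoWeR 10 and 38.2 to 48.9 CPM in the other PoWeR libraries, against 39.4 to 56.0 CPM in sedentary libraries, and did not pass (edgeR adjusted p = 0.803). Chrng, its fetal gamma subunit, had 108, 53, 5 and 26 counts in PoWeR libraries and 4 to 17 in sedentary libraries and did not pass (edgeR adjusted p = 0.0781).

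The same unevenness held for a group named after its values were seen. Krt8 and Krt18, keratins that pair into filaments and are found in simple epithelia and at low level in striated muscle, were nearly absent from sedentary soleus. Krt8 had 131, 67, 3 and 25 counts in PoWeR libraries 10, 12, 14 and 15, against 0, 0, 1, 0 and 0 in sedentary libraries. The PoWeR to sedentary ratio of the summed CPM of Krt8 was 268 with a 95% exact (Clopper-Pearson) interval of 47.7 to 10700, which covers counting error only. Krt8 was called (edgeR adjusted p = 0.0107), also in every leave-one-out fit. Krt18 had 269, 514, 12 and 133 counts in PoWeR libraries, against 2, 7, 30, 7 and 7 in sedentary libraries, and rose by 4.35 ± 0.78 (edgeR adjusted p = 0.0163). PoWeR 14 lay within the sedentary range of Krt18. Gdf5, a growth factor of the bone morphogenetic protein family, had 178, 200, 9 and 55 counts in PoWeR and 0 to 15 in sedentary libraries and rose by 3.63 ± 0.76 (edgeR adjusted p = 0.0292). Aif1l, an actin-binding protein gene, had 29.0, 28.2, 4.06 and 16.5 CPM with PoWeR and 1.21 to 6.71 CPM in sedentary libraries and rose by 2.31 ± 0.48 (edgeR adjusted p = 0.0324). Gdf5 and Aif1l kept their calls in 3 and 2 of the leave-one-out fits. Macrophage markers ran in a like order among the PoWeR libraries: the 13 tested summed to 103, 97.9, 48.4 and 69.2 CPM there and to 91.0, 66.1, 84.2, 58.7 and 68.2 CPM in sedentary libraries, with 0 called by edgeR or DESeq2 and 0 at an unadjusted p under 0.05. Their part in these rises was not tested.

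The start of Krt8 is shown because this gene was near 0 in sedentary soleus. The window is chr15:102004293-102004592, minus strand, GRCm38.p6, from 250 bases before to 50 after the RefSeq start, and capitals mark TATAAA on both strands.
Krt8: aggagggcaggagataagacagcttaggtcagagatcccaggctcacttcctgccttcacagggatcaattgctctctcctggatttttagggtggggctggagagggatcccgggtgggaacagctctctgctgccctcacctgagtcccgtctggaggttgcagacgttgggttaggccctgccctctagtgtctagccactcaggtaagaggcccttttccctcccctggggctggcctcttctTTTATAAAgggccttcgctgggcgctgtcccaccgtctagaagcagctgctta
The 2 matches overlap on opposite strands, and 13.6% of promoter windows hold at least 1 match. They begin at offsets of -3 and -1 bases from the RefSeq start, so that both run across it. The CCAAT box was not found in it on either strand. The E-box letters CACGTG were not found there, and neither was the cyclic AMP response element.

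**Figure D4:**
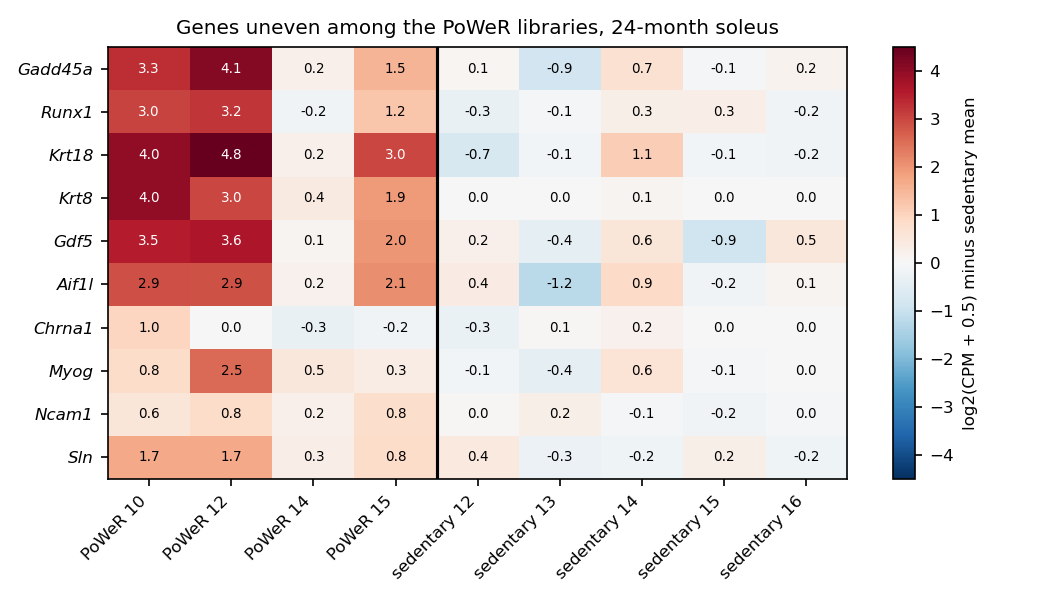
Log2(CPM + 0.5) minus the sedentary mean (colour and printed value) of 10 genes (rows) in the 4 PoWeR and 5 sedentary libraries of 24-month soleus (columns). Gadd45a, Runx1, Krt18, Krt8, Gdf5 and Aif1l are high in PoWeR 10 and 12, intermediate in PoWeR 15 and near 0 in PoWeR 14.

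Further rises came from enzymes, adaptors and transcription regulators. Tmem86a, an enzyme that breaks down lysoplasmalogens, had 10.3, 15.2, 10.7 and 21.4 CPM in PoWeR libraries, against 7.95, 4.07, 5.34, 5.37 and 6.54 CPM in sedentary libraries, and rose by 1.29 ± 0.21 (edgeR adjusted p = 0.00681). Uchl1, a deubiquitinating enzyme, averaged 65.0 ± 19.4 CPM with PoWeR and 31.8 ± 4.73 CPM without (1.03 ± 0.19). Abat, which breaks down the transmitter GABA, had 31.4, 50.7, 33.5 and 33.3 CPM in PoWeR libraries and 13.8 to 27.3 CPM in sedentary ones (1.002 ± 0.19). Sh2d4a, a signalling adaptor with an SH2 domain, averaged 14.9 ± 4.15 CPM with PoWeR and 6.04 ± 1.61 CPM without (1.30 ± 0.24), and Dupd1, a phosphatase of muscle, 73.0 ± 22.4 and 33.9 ± 6.27 CPM (1.10 ± 0.21). Serpinb1a, an inhibitor of neutrophil proteases, rose by 1.24, Abhd17c, which strips palmitate from proteins, by 1.08, and the chemokine receptor family gene Ccrl2 by 1.05. The call of Ccrl2 was lost in all 9 leave-one-out fits (edgeR adjusted p up to 0.132). Picked out after the values were seen, Nfkb2 and Map3k14, the transcription factor and the kinase of the alternative NF-kappa-B pathway, rose by 0.74 and 0.86, and Tnip1, a brake on NF-kappa-B, by 0.60; each kept its call in 4 or fewer leave-one-out fits. The homeobox gene En1 rose by 0.88 and the kinase gene Sbk1 by 0.79, and both were called in all 9 of those fits. In autophagy, 1 of 15 genes was called: Gabarapl1, which sits on autophagosome membranes, had 168 to 213 CPM with PoWeR and 278 to 311 CPM in sedentary libraries and fell by 0.69 ± 0.14 (edgeR adjusted p = 0.0192). Retreg1, a receptor for autophagy of the endoplasmic reticulum that was not on the list, fell by 0.60 and was called in all leave-one-out fits. Tef, a clock output transcription factor, was the 1 of 19 clock genes called, at 191 ± 19.7 CPM with PoWeR and 140 ± 17.97 CPM without (0.45 ± 0.10).

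Fibre type and most cell type lists held no called gene. In 12 slow and 15 fast fibre contractile genes 0 passed by the main edgeR fit or DESeq2, with medians of -0.14 and -0.21. Of these, 0 and 3 had an unadjusted p under 0.05. Limma with quality weights and the edgeR fit of only the 9 libraries each called 1 fast gene lower. With the replicate number as a block, 1 slow and 1 fast gene were called higher. All PoWeR libraries lay below all sedentary ones in 3 fast genes and above them in 0, against 3.8 and 2.9% of all genes tested. Tnnc2, the fast troponin C, had 1657 to 1865 CPM with PoWeR and 2420 to 2695 CPM in sedentary libraries and did not pass (edgeR adjusted p = 0.153). The Myh7 share averaged 57.7 ± 4.88% with PoWeR and 52.8 ± 2.695% without (exact permutation p = 0.0794; p = 0.198 after adjustment over 5 shares). The Myh2 share averaged 31.0 ± 8.44 and 36.5 ± 4.02% in PoWeR and sedentary libraries (exact permutation p = 0.238). The Myh1 share was 23.5% in PoWeR 10 and 3.53 to 8.08% in the other PoWeR libraries, against 7.92 to 11.5% in sedentary ones, and leaving out PoWeR 10 turned its difference of means to -3.52 percentage points. Of all 48 lists, 30 held no called gene and 1, T cell markers, had no member that passed the filter on low counts. Lists with 0 called by edgeR and by DESeq2 included 29 extracellular matrix genes (median 0.02, 1 at an unadjusted p under 0.05), 12 fibro-adipogenic progenitor markers (median -0.25, 2), 14 glucocorticoid and fasting genes (median 0.33, 3) and 16 ribosomal protein genes (median -0.08, 0). Of 13 atrophy signalling genes (median 0.27) edgeR called 0 and DESeq2 1 higher, with 4 at an unadjusted p under 0.05, and of 22 angiogenic factors and receptors (median 0.04) edgeR called 0 and DESeq2 2 lower, with 6. All 12 progenitor markers were negative. Vegfa, the main growth factor of capillaries, averaged 212 ± 55.4 CPM with PoWeR and 315 ± 36.6 CPM without and did not pass (edgeR adjusted p = 0.102). Fbxo32, the atrophy ubiquitin ligase, had 927, 881, 582 and 563 CPM with PoWeR and 504 to 667 CPM without, high in PoWeR 10 and 12, and did not pass (edgeR adjusted p = 0.169).

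The same training was set beside the 6-month soleus, with 4 PoWeR and 4 sedentary libraries that share no sample with the 24-month groups but were fitted in the same model. At 6 months 1920 of 14934 genes were called (12.9%), 891 higher (5.97%) and 1029 lower (6.89%). Of the 128 genes called at 24 months 57 were called at 6 months, all 57 in the same direction, which is 44.5% of the 24-month calls and 2.97% of the 6-month calls; 112 of the 128 had the same sign. Nrcam had 2.60 at 24 and 3.16 at 6 months, Padi2 -1.07 and -1.09, Ech1 -0.77 and -0.99, Fasn 1.68 and 1.01, and Ostn -0.99 and -1.18 on the log2 scale, and each was called at both ages. Olr1 had -2.52 at 24 and -2.55 at 6 months, where it was not called (edgeR adjusted p = 0.0607). Dusp1 had -1.64 at 24 and 0.08 at 6 months, Dll1 1.26 and -0.15, Pim1, a survival kinase gene, 0.996 and -0.37, and Gdf5 3.63 and -2.93, and none of these was called at 6 months. The difference of the effects at the 2 ages was tested directly by an age by PoWeR interaction, which called 0 genes by edgeR (1995 at an unadjusted p under 0.05; 73 by DESeq2). Its smallest edgeR adjusted p, 0.119, was shared by 28 genes, among them Dusp1 with a difference of -1.73, Pim1 with 1.37 and Gdf5 with 6.56, and leaving out PoWeR replicate 4 of the 6-month group gave 58 calls. Nuclear oxidative phosphorylation genes had a median of -0.31 with 0 of 34 lower at 24 months and of -0.62 with 31 lower at 6 months, mitochondrially encoded genes -0.40 with 0 of 13 and -0.79 with 11, and fatty acid use genes -0.40 with 4 of 25 and -0.49 with 14. Whether the lists differ between ages was not tested as a list.

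**Figure D5:**
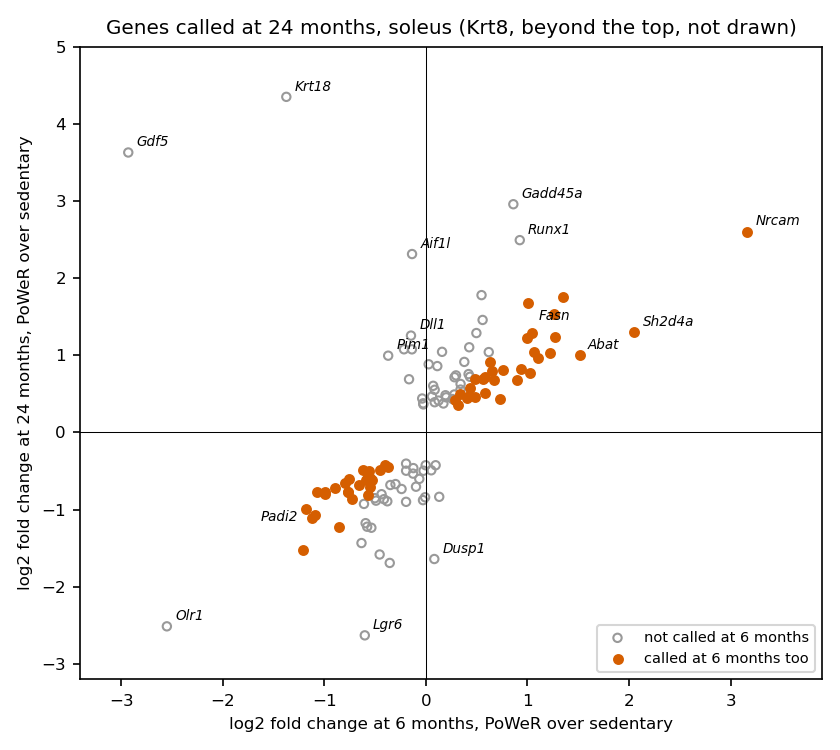
Log2 fold change of PoWeR over sedentary at 24 months (y axis) against that at 6 months (x axis) for the genes called in 24-month soleus; Krt8 lies beyond the top and is not drawn. Orange points are the 57 genes called at 6 months too, all with the same sign at both ages; Dusp1, Gdf5 and Krt18 have opposite signs at the 2 ages.

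The series also holds 4 PoWeR and 5 sedentary libraries of 24-month plantaris, the fast neighbour of the soleus. No label says whether they share animals with the soleus libraries. The titles of these plantaris libraries name the soleus and their source label the plantaris, which was followed. In them Myh7 took 0.4 to 2.68% of the adult myosin counts with PoWeR and 0.0667 to 1.24% without. In these libraries 0 of the 128 genes were called by edgeR (20 at an unadjusted p under 0.05, which 12.5% of all genes reached), where 1 of 14823 genes was called in all (0.00675%), and 75 had the same sign as in soleus. Fasn had 1.68 in soleus and 1.69 in plantaris, where it did not pass (edgeR adjusted p = 0.145), and Nrcam 2.60 and 0.37. Nuclear oxidative phosphorylation genes had a median of -0.31 in soleus and 0.24 in plantaris, mitochondrially encoded genes -0.40 and 0.49, and fatty acid use genes -0.40 and 0.03. The muscle by PoWeR interaction, fitted in the 18 libraries of 24-month mice, called 0 of 14823 genes by edgeR (1785 at an unadjusted p under 0.05; 184 by DESeq2), with a smallest adjusted p of 0.116; without plantaris PoWeR 10 it called 197.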

How the data were processed

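RNA sequencing counts of 34 mouse muscle libraries were used, 9 of them from 24-month soleus. The deposited table holds expected counts per gene for 23011 genes, which the authors estimated from reads and did not normalise; per the submitters' processing notes STAR 2.7.3a, Partek, DESeq2 and mm10 were used, with no role or order given. Values that were not whole were rounded before fitting. All 34 value columns map to a sample. The rRNA repeat gene held 0.791 to 2.19% of counts in these 9 libraries. Ends in the table lie 1 base past the GENCODE M21 ends on GRCm38, so 1 was subtracted, after which 99.0% of matched symbols had identical coordinates.

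The fit used edgeR 4.0.16 in R 4.3.3 on all 17 soleus libraries with a mean per group, TMM factors, filterByExpr (minimum count 10, minimum total 15), robust dispersion estimation and its quasi-likelihood F test, with p-values adjusted by Benjamini-Hochberg over 14934 genes. All groups shared the estimate of the spread. The age by PoWeR interaction came from this fit and the muscle by PoWeR interaction from the 18 libraries of 24-month mice. CPM deviations of lists used log2(CPM + 0.5). For 5 shares of counts, two-sided exact permutation tests were run in scipy 1.17.1. Replicates of a group differed by more than counting error, with a chi-square per degree of freedom of 5.15 to 48.7. Same-numbered PoWeR and sedentary libraries deviated together with r from -0.146 to 0.0614 over 3 pairs, so the numbers were not taken to pair PoWeR with sedentary libraries.

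Genes were named by rule: of the called genes that reached 5 CPM in either group without overlap of libraries, the 15 that rose most and the 15 that fell most, then up to 4 called members per list, or 2 by smallest p where none was called. The genes, the comparison and the 48 lists were chosen with earlier results of these data known. Alternatives were DESeq2 1.42.0, limma 3.58.1 with quality weights, RLE factors, no filter, fewer libraries and the replicate block. The fit was tested on simulated data first. Promoter sequences are from RefSeq on GRCm38.p6. Figures used matplotlib 3.10.9. The libraries labelled 6-month plantaris are not used here. A few genes that the naming rule selects are not reported here.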

Additional observations from a re-analysis of the deposited data

Results flagged for a closer look

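In 8 of 70 groups examined, the highest or lowest library lay farther from its neighbour than Dixon's 95% criterion allows. Chance alone flags about 1 group in 20. Among the myosin shares, sedentary 14 had 43.6% Myh2 where the other sedentary libraries had 33.6 to 35.6%, and sedentary 13 had 3.16% Myh4 where the others had 0.0328 to 0.244%. Among called genes, 3 rises held such a library: Dll1 was 5.19 CPM in sedentary 16 and 2.54 to 2.97 CPM in the other sedentary libraries, Abhd17c was 15.7 CPM in PoWeR 12 and 7.14 to 8.12 CPM in the other PoWeR libraries, and Abat was 50.7 CPM in PoWeR 12 and 31.4 to 33.5 CPM in the others. Among the falls, Lsmem1 was 23.1 CPM in PoWeR 14 and 11.3 to 12.9 CPM in the other PoWeR libraries. Atp1b4 was 29.4 CPM in sedentary 14 and 36.3 to 37.96 CPM in the other sedentary libraries, and the non-coding gene Gm50321 was 15.4 CPM in sedentary 12 and 12.9 to 13.5 CPM in the others.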

How the results depend on the processing

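The 128 called genes became 377 when DESeq2 was used, 521 under limma's quality weights, 229 when the fit held only the 9 libraries, 130 under RLE factors and 128 with no filter. Leaving out 1 library at a time gave 36 to 172, and omitting sedentary 12 and 13 together, chosen after seeing the data, gave 12. The cause of these differences was not tested. The replicate numbers of the labels, which were not taken to pair PoWeR with sedentary libraries, gave 71 calls as a block in the 9 libraries. The age interaction called 0 genes, 73 by DESeq2 and 0 to 58 with 1 library left out (58 without PoWeR 4 of the 6-month group). The muscle interaction called 0 genes, 184 by DESeq2, 2 with the replicate number as a block and 0 to 197 with 1 library left out (197 without plantaris PoWeR 10). Soleus and plantaris libraries of the same number deviated together with r from 0.0266 to 0.457 over 9 pairs, and 8 of 9 correlated best with their own number, a hint from the data and not from the design. The mitochondrial share difference ran from -3.04 to -2.13 percentage points with 1 library left out and missed the threshold in 7 of 9 fits. The Myh1 share difference, 0.765 points with all libraries, ran from -3.52 (without PoWeR 10) to 3.15. The Myh4 share difference, -0.129 with all libraries, ran from -0.298 to 0.482 (without sedentary 13) and was 0.0418 without PoWeR 15. Of 1674 values of the 105 named genes under other settings, 1400 kept direction and side of the threshold, 236 lost the call, 34 gained it and 4 changed sign, in 3 genes that were not called. On the log2 scale Itgam became -0.0285 and Ighm -0.145 under the replicate block, Ighm ran from -0.0430 (without PoWeR 10) to 1.20 with 1 library left out, and Cidec became 0.149 without sedentary 12 and 13.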
